A study of Mus musculus with 6 samples.

Results

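Cytokines whose messages are known for AU-rich elements were examined as a set of 10 genes: Il1a, Il1b, Il1rn, Il6, Il10, Il17a, Ifng, Tnf, Lif and Csf1. They were chosen by name and matched on the gene column of the authors' deposited table, where all 10 were found among 23361 genes. The samples were Sdc4-sorted muscle cells, labelled as satellite cells, which are muscle stem cells, from AUF1-null mice and from wild-type mice, 3 samples each. All mice were 4 months old, and per the labels their breeding combined C57BL/6 with a 129 background. Hindlimb muscle was digested with collagenase and cells were sorted on the surface proteoglycan Sdc4, a marker that other cells can carry too. The labels do not say how AUF1 was removed, in which cells, or whether each sample was 1 mouse.

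AUF1, made from Hnrnpd, is a protein that binds AU-rich elements, stretches of repeated AUUUA in the 3' UTR of short-lived mRNAs. Such elements recruit proteins that speed or slow the decay of the message, and cytokine mRNAs are the textbook example. Cytokines such as TNF, IL-6 and LIF are made in damaged muscle by immune cells and by muscle-resident cells, and they act on both.

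The authors' deposited table holds 1 value per gene for each of 2 conditions, named q2 and q1, on the FPKM scale, which divides fragment counts by transcript length and sequencing depth. It does not say which condition is AUF1-null, so every direction below compares q2 with q1 and names no genotype. Hnrnpd itself was listed at 5.59 FPKM in q2 and 7.50 FPKM in q1 in the authors' deposited table (log2 fold change -0.42, Cuffdiff q = 0.999), which does not settle the order. A value pooled over replicates carries no spread, so differences are judged by the authors' Cuffdiff test alone, and a gene is called when it was tested and its q lay below 0.05. Because the cells were measured in bulk, more cells of a type and more RNA per cell cannot be told apart.

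The AU-rich stretches were read from the annotation first, since the set is named for them. In each gene's longest 3' UTR (GENCODE vM21, GRCm38), 9 of the 10 genes held at least 1 pentamer ATTTA, the DNA spelling of AUUUA, against 65.2% of 20993 protein-coding genes with a 3' UTR. Il1rn was the exception, with no pentamer in 1864 bases or in any of its 4 annotated 3' UTRs, so its place in the set does not rest on this motif. The longer nonamer TTATTTATT, which contains the pentamer, was found in Tnf with 5 overlapping copies and in Lif with 2, against 7.67% of all genes with at least 1. Both motifs were searched on the strand of the transcript only, since they are RNA elements, and copies may overlap.

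The windows below show the densest stretch of at most 30 bases for the 6 genes on which the results turn, with the pentamers in capitals, 5′ to 3′ on the transcript strand.
Tnf: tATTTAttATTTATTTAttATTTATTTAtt
Ifng: ctATTTAttaatATTTAaaactATTTAtat
Il17a: ATTTAtatgagctATTTAtgaatctATTTA
Il1b: ttacctATTTATTTAtgtATTTAttgattg
Il10: tctctccgaaatATTTAttacctctgatac
Il6: atttttaATTTAttgataATTTAaataagt
They lie in the last exon of each gene, at chr17:35199677-35199706 (minus strand) for Tnf, chr10:118445333-118445362 (plus) for Ifng, chr1:20734203-20734232 (plus) for Il17a, chr2:129364801-129364830 (minus) for Il1b, chr1:131024385-131024414 (plus) for Il10 and chr5:30019684-30019713 (plus) for Il6. The stretch of Tnf held 5 pentamers in a row, those of Ifng, Il17a and Il1b held 3 each, and the 6 pentamers of Il10 were spread so that no window held more than 1.

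The 3' UTRs differed in how crowded they were. Tnf had 8 pentamers in 764 bases, a count that 0.339% of 3' UTRs within 20% of that length reached, and Il17a had 7 in 637 bases, which 0.629% reached. Ifng had 6 pentamers in 631 bases, Il10 had 6 in 706, Il1b had 4 in 459 and Il6 had 10 in 1668, and between 1.37% and 3.27% of 3' UTRs of like length held as many. Il1a with 3, Lif with 7 and Csf1 with 4 were not unusual for their length, since 34.5%, 38.7% and 49.1% of like 3' UTRs held as many. The count of Il6 depends on the transcript: a shorter annotated 3' UTR of the gene holds 6 pentamers in 427 bases and includes the printed stretch.

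**Figure D1:**
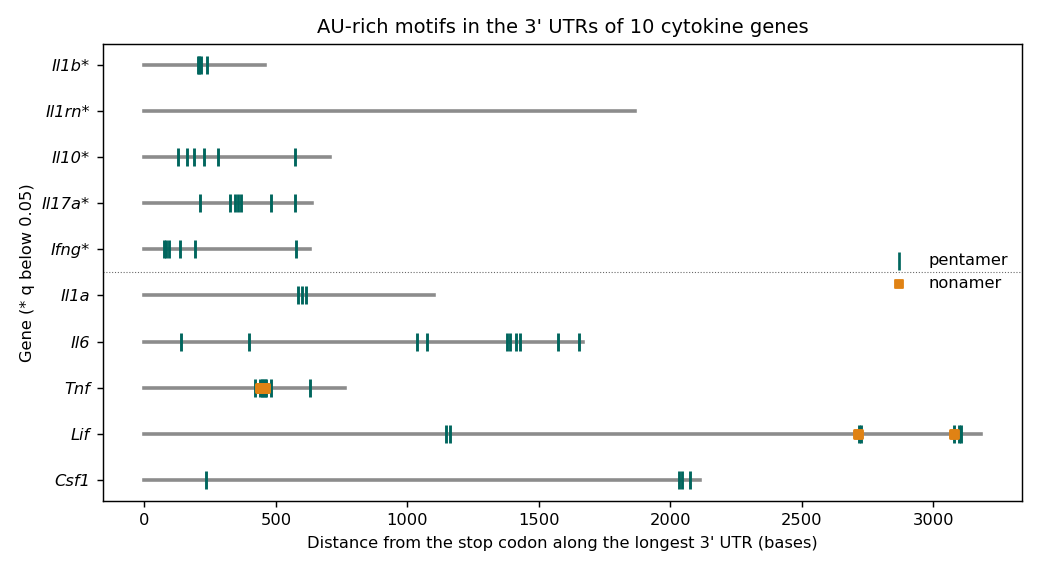
Positions of the pentamer (green ticks) and the nonamer (orange squares) along each gene's longest 3' UTR, in bases from the stop codon; genes above the dotted line were called at q below 0.05. Il1rn has no tick, Tnf has its motifs close together, and both nonamers of Lif lie far from its stop codon.

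Of the 10 cytokines, 5 rose in q2 and none fell: Il10, Il1rn, Il1b, Ifng and Il17a. The other 5 did not pass the test, with Tnf, Il6 and Lif higher and Csf1 and Il1a lower in q2. Among all 14858 tested genes, 0.612% were called, and 0.498% were called higher and 0.114% lower. The genes were picked with earlier results of these data known, so the count describes them and is no independent evidence for the set. Over the 8 genes above 0 in both conditions, 3 were called, against 0.494% of 14779 such genes, and the median log2 fold change was 0.72, against -0.01. Ifng and Il17a were listed at exactly 0 in q1, which gives them no fold change. Without genes at 0, and with the p-values adjusted again, Il1b and Il1rn remained called and Il10 did not (q = 0.0607).

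Some markers of blood cells were also called higher in q2. In the authors' deposited table, 10 of 15 neutrophil markers rose, where 0.612% of all tested genes were called. The list summed there to 15550 FPKM in q2 and 1217 FPKM in q1, with S100a8, S100a9 and Ngp the highest in both. Those that rose were S100a8, S100a9, Mmp8, Camp, Retnlg, Ngp, Fpr1, Ltf, Mpo and Lcn2, most of them granule proteins. The other 5, Csf3r, Cxcr2, Fpr2, Elane and Itgam, were higher in q2 without being called. Of these, Cxcr2 differed least, at 10.6 FPKM in q2 and 7.90 FPKM in q1 in the authors' deposited table (Cuffdiff q = 0.999). Elane shares its listed position with Prtn3 in the authors' deposited table, so its level may not be that of Elane alone. Of 18 macrophage and monocyte markers, Ccr2 and Tyrobp rose there, and the list summed to 4081 FPKM in q2 and 2075 FPKM in q1. Lyz2 made up much of that sum, at 1504 FPKM in q2 and 633 FPKM in q1 in the authors' deposited table. In the same list, 4 markers lay below 0 on the log2 scale without being called: Cd163 at -0.82, Csf1r at -0.75, Emr1 at -0.16 and Mrc1 at -0.02, the first with an unadjusted Cuffdiff p of 0.0442. The 19 T and natural killer cell markers summed to 55.2 FPKM in q2 and 14.6 FPKM in q1 in the authors' deposited table, and 1 of 14 tested, Nkg7 of cytotoxic granules, rose. The 7 B cell markers summed there to 99.8 FPKM in q2 and 18.3 FPKM in q1, and 1 of 6 tested, the antibody joining chain gene Igj, rose. Markers of satellite cells were not called (0 of 10 at the authors' Cuffdiff q, 0 at an unadjusted p below 0.05). At 0.612% called among all tested genes, that count says nothing particular about them. Their sums were 605 FPKM in q2 and 578 FPKM in q1 in the authors' deposited table. Those sums rest mainly on Cd34 and the sorting marker Sdc4, and how far they follow satellite cell content was not tested. No blood cell marker was at 0 in q1, and 1 of them, Il23r, was listed at 0 in q2. The part of these cells in the cytokine values was not tested. Endothelial genes, led by Fabp4 and Egfl7, and fibroblast genes, with Gsn the highest and Dcn and Ly6a next, were abundant in both conditions, with sums over 6 markers each of 13526 and 5512 FPKM in q2 and 16124 and 6408 FPKM in q1 in the authors' deposited table, while Pax7, the transcription factor that defines satellite cells, was at 0.85 FPKM in q2 and 1.16 FPKM in q1.

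**Figure D2:**
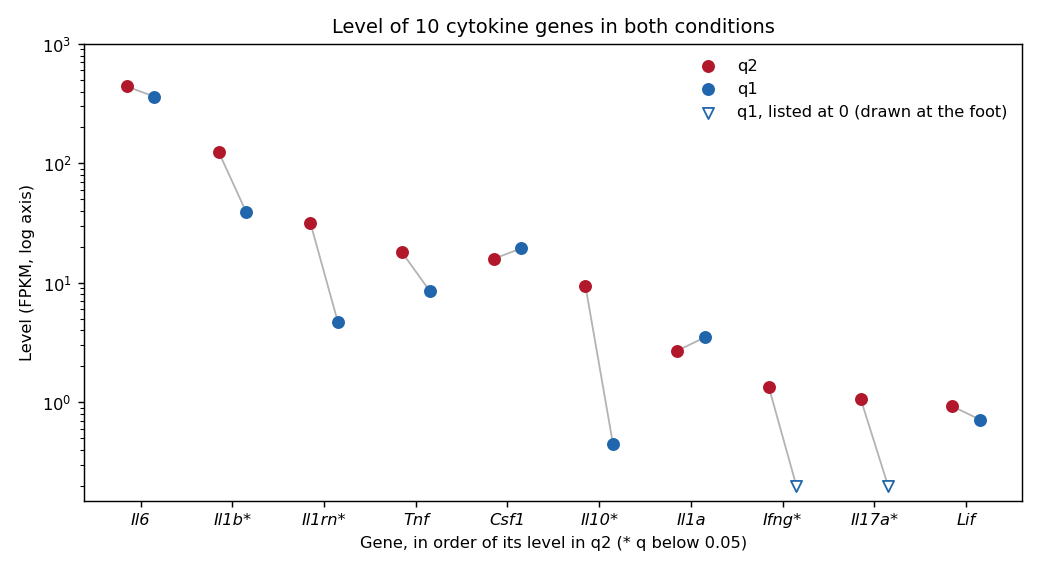
Level of each cytokine in q2 (red, left) and q1 (blue, right), in FPKM on a log axis, with 1 pooled value per condition and no error; a star marks q below 0.05 and an open triangle a value listed at 0. Il6 stands highest at 441 FPKM in q2 and 362 FPKM in q1, and the widest gaps among genes above 0 in both are those of Il10 and Il1rn.

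The levels spanned nearly the whole range of the table. In q2 the order was Il6, Il1b, Il1rn, Tnf, Csf1, Il10, Il1a, Ifng, Il17a and Lif. In q1 it was Il6, Il1b, Csf1, Tnf, Il1rn, Il1a, Lif and Il10, with Ifng and Il17a at 0. Il6 exceeded 98.4% of tested genes in q2 and 98.2% in q1, whereas Lif exceeded 11.9% in q2 and 9.49% in q1. Il10 moved furthest in rank, above 55.4% of tested genes in q2 and above 4.35% in q1. With 1 value per condition, whether neighbours in these orders differ beyond their spread cannot be judged.

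The interleukin 1 system showed rises in an agonist, its antagonist and a decoy receptor. Il1b codes for IL-1 beta, the secreted agonist that caspase 1 activates. It was listed at 125 FPKM in q2 and 39.3 FPKM in q1 in the authors' deposited table, a 3.19-fold rise (log2 fold change 1.67, Cuffdiff q = 0.0201). Il1rn codes for the receptor antagonist, which occupies the same receptor without signalling. It was listed at 32.0 FPKM in q2 and 4.72 FPKM in q1 in the authors' deposited table, a 6.78-fold rise (log2 fold change 2.76, Cuffdiff q = 0.0108). The antagonist therefore stood at 0.255 of the Il1b level in q2 and at 0.120 of it in q1. Il1a, the agonist that cells hold inside and release on damage, was not called. It was listed at 2.70 FPKM in q2 and 3.50 FPKM in q1 in the authors' deposited table (log2 fold change -0.37, Cuffdiff q = 0.999), although its gene lies 54607 bases from Il1b on chromosome 2. The level of Il1b was 46.3 times that of Il1a in q2 and 11.2 times in q1.

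Among the receptors of this system, Il1r2 rose, at 134 FPKM in q2 and 26.2 FPKM in q1 in the authors' deposited table (log2 fold change 2.35, Cuffdiff q = 0.0108). It codes for the decoy receptor, which binds IL-1 without signalling and is abundant on neutrophils. The signalling receptor Il1r1 was listed at 20.1 FPKM in q2 and 22.3 FPKM in q1, and its partner Il1rap at 10.4 FPKM in q2 and 7.61 FPKM in q1, in the authors' deposited table; neither was called (q = 0.999 each). Decoy and signalling receptor stood at a ratio of 6.66 in q2 and 1.18 in q1. Casp1, which cuts the IL-1 beta precursor, was at 16.9 FPKM in q2 and 13.2 FPKM in q1, and Nlrp3, a sensor that activates it, at 3.33 FPKM in q2 and 1.53 FPKM in q1, again without passing (Cuffdiff q = 0.999 and 0.886 in the authors' deposited table). No source used here states the strand setting of the libraries, and antisense genes overlap Il1b and Il1a. Their counterparts in the authors' deposited table were low, with Gm14047, which overlaps Il1b, at 0.061 FPKM in q2 and 0.032 FPKM in q1, and Gm14023, which overlaps Il1a, at 0.97 FPKM in q2 and 0.40 FPKM in q1.

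Il10, an anti-inflammatory cytokine made by macrophages and lymphocytes, had the largest fold change of the set. It was listed at 9.43 FPKM in q2 and 0.45 FPKM in q1 in the authors' deposited table (log2 fold change 4.39, Cuffdiff q = 0.0490). The size rests on a low q1 value: the 21.0-fold difference was 7.20-fold with a pseudocount of 1 FPKM. The call is also narrow, since q was 0.0510 when genes below 1 FPKM on the higher side were left out. Its receptor chains were not called. Il10ra, the chain that binds the cytokine, was at 8.70 FPKM in q2 and 5.97 FPKM in q1, and the shared chain Il10rb at 48.9 FPKM in q2 and 56.5 FPKM in q1, in the authors' deposited table (Cuffdiff q = 0.999 each). The next cytokine gene on the chromosome, Il19 of the same family, was barely detected, at 0.069 FPKM in q2 and listed at 0 in q1.

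**Figure D3:**
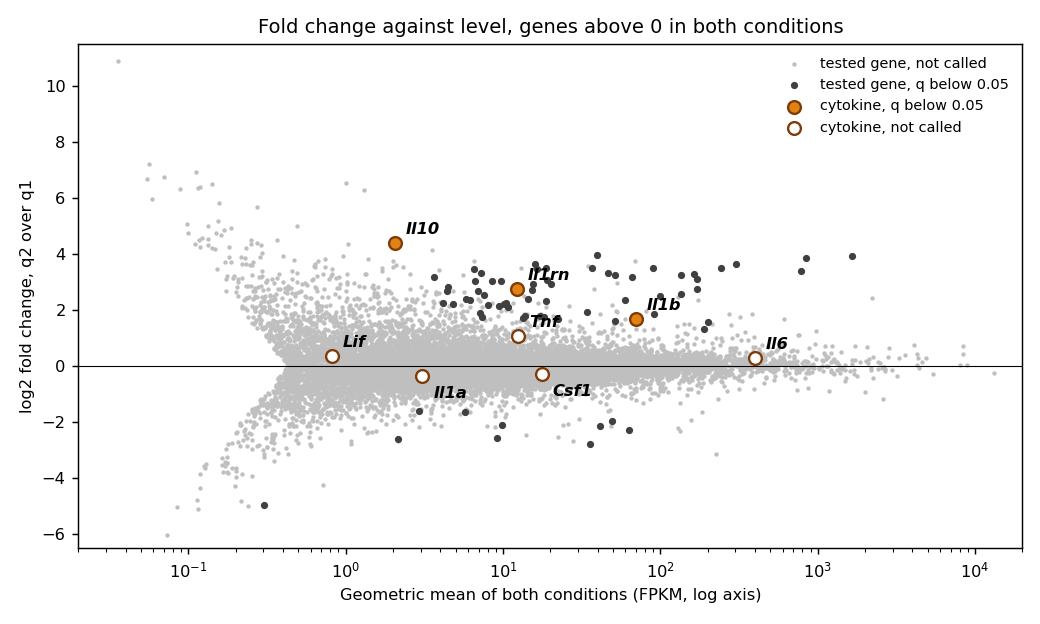
Log2 fold change of q2 over q1 against the geometric mean of both conditions in FPKM (log axis), for the 14779 tested genes above 0 in both; large circles are the cytokines, filled where q was below 0.05. Il10 lies highest among the cytokines at 4.39, while Il6, Lif, Il1a and Csf1 lie near 0 within the cloud of genes not called; Ifng and Il17a have no fold change and are not drawn.

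Ifng and Il17a were called on values of exactly 0 in q1. Ifng codes for interferon gamma, a product of T and natural killer cells that activates macrophages, and was listed at 1.34 FPKM in q2 and 0 in q1 in the authors' deposited table (Cuffdiff q = 0.0108). Il17a codes for a cytokine of a class of T cells that draws in neutrophils, and was listed at 1.07 FPKM in q2 and 0 in q1 in the authors' deposited table (Cuffdiff q = 0.0108). Both are low levels, above 16.5% and 13.6% of tested genes in q2.

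Such calls differed from those of other low genes in the table. Among tested genes, 79 had a side listed at 0, and 18 of these, or 22.8%, were called, all at the smallest p-value in the table, 5e-05. All 18 had between 0.45 and 1.91 FPKM on the other side. By contrast, none of 1988 tested genes above 0 in both conditions with a higher side no greater than the Ifng value was called by the authors' Cuffdiff q; 63 of them had an unadjusted p below 0.05, and the smallest was 0.0025. Genes of lymphocytes with like values were among those not called. Il17f, a relative of Il17a that lies 42649 bases away, was listed at 0.81 FPKM in q2 and 0.16 FPKM in q1 in the authors' deposited table without being called (Cuffdiff q = 0.999). Lta, a cytokine of lymphocytes, was at 1.14 FPKM in q2 and 0.14 FPKM in q1 there (Cuffdiff q = 0.999). Cd3e, a chain of the T cell receptor complex, was at 1.96 FPKM in q2 and 0.46 FPKM in q1 there (Cuffdiff q = 0.735). No read counts were analysed here, so how many fragments stand behind 1 FPKM, and what a 0 allows, is unknown.

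**Figure D4:**
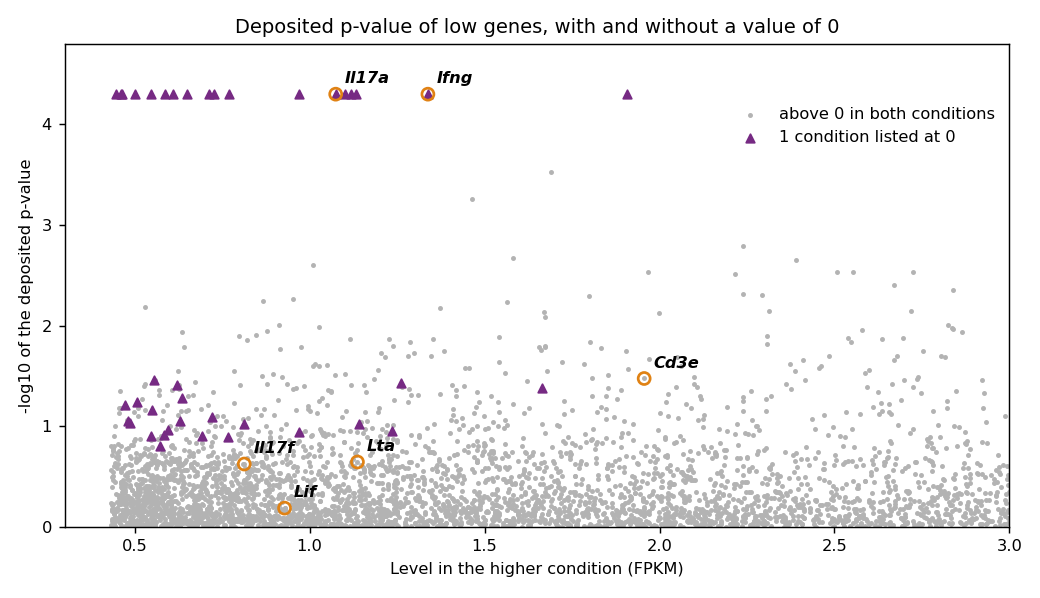
Minus log10 of the authors' deposited p-value against the level in the higher condition, for tested genes of up to 3 FPKM; triangles have 1 condition listed at 0 and dots are above 0 in both. Ifng and Il17a sit in the row of triangles at the smallest p of 5e-05, while Il17f, Lta, Lif and Cd3e, circled, lie far below it.

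The receptors for interferon gamma and IL-17A were not called. Ifngr1, which binds interferon gamma, was at 202 FPKM in q2 and 203 FPKM in q1, and its partner Ifngr2 at 18.8 FPKM in q2 and 14.9 FPKM in q1, in the authors' deposited table (Cuffdiff q = 0.999 each). Irf1, Cxcl9, Ciita, Cxcl10 and Gbp2, all on a list of genes that these cytokines are known to induce and all induced by interferon gamma, were not called. With 0.612% of all tested genes called, the lack of a call says nothing particular about these genes or the receptors. Irf1, a transcription factor, was at 542 FPKM in q2 and 536 FPKM in q1, Cxcl9, a chemokine for T cells, at 28.4 FPKM in q2 and 25.7 FPKM in q1, and Ciita, the activator of class II antigen presentation genes, at 2.26 FPKM in q2 and 2.22 FPKM in q1 in the authors' deposited table. The log2 fold changes of Cxcl10, another chemokine, and of Gbp2, a guanylate-binding protein, were -0.44 and -0.31. The position listed for Cxcl10, chr5:92331841-92414627, is far wider than that of Cxcl9, chr5:92321331-92328079, so its value may not be that of Cxcl10 alone. Gbp1, a relative of Gbp2 that interferon gamma also induces, is not on the list and was picked after its values were seen. It fell, at 24.8 FPKM in q2 and 96.6 FPKM in q1 in the authors' deposited table (log2 fold change -1.96, Cuffdiff q = 0.0427). Irf7 and Oasl1, interferon-responsive genes also off the list and picked in the same way, went the other way. They were listed at 127 and 17.1 FPKM in q2 and 41.4 and 3.76 FPKM in q1 in the authors' deposited table (Cuffdiff q = 0.0108 each). Whether interferon gamma acted on these cells was not tested. The IL-17 receptor chains Il17ra, at 4.71 FPKM in q2 and 4.52 FPKM in q1, and Il17rc, at 6.54 FPKM in q2 and 6.70 FPKM in q1, were not called either (Cuffdiff q = 0.999 each in the authors' deposited table).

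Tnf, Il6, Lif and Csf1 did not pass the test. Tnf, a central cytokine of inflammation, was listed at 18.0 FPKM in q2 and 8.61 FPKM in q1 in the authors' deposited table (log2 fold change 1.06). Its unadjusted Cuffdiff p was 0.0374 and its q was 0.764, in a table where 5.99% of tested genes had a p below 0.05. Its receptors lay close together between conditions. Tnfrsf1a, which most cells carry, was at 151 FPKM in q2 and 157 FPKM in q1, and Tnfrsf1b, found mainly on immune and endothelial cells, at 18.4 FPKM in q2 and 17.5 FPKM in q1, in the authors' deposited table (Cuffdiff q = 0.999 each).

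Il6, which acts on muscle stem cells as well as on immune cells, was the most abundant of the 10 in both conditions. It was listed at 441 FPKM in q2 and 362 FPKM in q1 in the authors' deposited table (log2 fold change 0.29, Cuffdiff q = 0.999). Its binding receptor Il6ra was low, at 2.90 FPKM in q2 and 4.04 FPKM in q1, whereas the signalling chain Il6st was at 75.4 FPKM in q2 and 104 FPKM in q1 in the authors' deposited table (Cuffdiff q = 0.999 each). Lif signals through the same chain and was low, at 0.93 FPKM in q2 and 0.72 FPKM in q1 in the authors' deposited table (log2 fold change 0.37, Cuffdiff q = 0.999). Its receptor Lifr was at 35.1 FPKM in q2 and 45.2 FPKM in q1 there (Cuffdiff q = 0.999). Socs3, the feedback inhibitor that IL-6 and LIF induce, was abundant at 339 FPKM in q2 and 423 FPKM in q1 in the authors' deposited table without passing (Cuffdiff q = 0.999).

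Csf1, the growth factor that keeps macrophages alive, was listed at 15.9 FPKM in q2 and 19.4 FPKM in q1 in the authors' deposited table (log2 fold change -0.29, Cuffdiff q = 0.999). Csf1r, its receptor on macrophages, was at 49.7 FPKM in q2 and 83.8 FPKM in q1 there (log2 fold change -0.75, Cuffdiff q = 0.999). Il34, the other ligand of that receptor, stood at 21.9 FPKM in q2 and 26.2 FPKM in q1 in the authors' deposited table (Cuffdiff q = 0.999).

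The counts of called genes in the related lists stand beside 0.612% called among all tested genes. Of 15 receptor genes, Il1r2 alone passed, or 6.67%, 6 lay above and 9 below 0, and the median log2 fold change was -0.04. None of 24 genes of cytokine processing and signalling passed the authors' Cuffdiff q, which is no departure from that share, with a median of -0.18, and 1 of them, the kinase gene Jak2, had an unadjusted p below 0.05, at 9.0 FPKM in q2 and 16.3 FPKM in q1 in the authors' deposited table. Nfkbia, the inhibitor of NF-kB, was the most abundant of these with Socs3, at 718 FPKM in q2 and 965 FPKM in q1 there (Cuffdiff q = 0.999). The position listed for Nfkbia, chr12:55280814-55492647, is wide and may take in other genes, so its level may not be that of Nfkbia alone. Of 18 genes that these cytokines are known to induce, Lcn2 and Hp rose, or 11.1%, and the median was 0.18. Lcn2, an iron-trapping protein, was at 502 FPKM in q2 and 57.7 FPKM in q1, and Hp, which codes for haptoglobin, at 148 FPKM in q2 and 14.7 FPKM in q1, in the authors' deposited table (Cuffdiff q = 0.0108 each). Both proteins are also stored in neutrophil granules, and Lcn2 is on the neutrophil marker list. Cxcl1 was at 790 FPKM in q2 and 462 FPKM in q1 in the authors' deposited table (unadjusted Cuffdiff p = 0.0463, adjusted q = 0.806). Cxcl5, Csf3 and Nfkbiz were not called either (Cuffdiff q = 0.999 each). Ptgs2, the inducible prostaglandin synthase with an AU-rich message of its own, was at 9.47 FPKM in q2 and 4.48 FPKM in q1 in the authors' deposited table (unadjusted Cuffdiff p = 0.0104, adjusted q = 0.465). Saa3, an acute phase gene, was at 11.6 FPKM in q2 and 0.15 FPKM in q1 in the authors' deposited table and yet did not pass (Cuffdiff p = 0.204, q = 0.999).

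None of 27 other tested cytokine genes was called at the authors' Cuffdiff q below 0.05, while 2 had an unadjusted p below 0.05, and their median log2 fold change was 0.25. At 0.612% called among all tested genes, a count of 0 says nothing particular about these genes. Those 2 were Osm and Il1f9. Osm, which codes for oncostatin M of the IL-6 family, was at 21.1 FPKM in q2 and 5.23 FPKM in q1 in the authors' deposited table (log2 fold change 2.01, Cuffdiff q = 0.0565). It lies 16541 bases from Lif, and its level was 22.7 times that of Lif in q2 and 7.29 times in q1. Il1f9, the older symbol of IL-36 gamma of the IL-1 family, was at 15.2 FPKM in q2 and 3.55 FPKM in q1 there (log2 fold change 2.09, Cuffdiff q = 0.145). Lta lies 1168 bases from Tnf, and Tnf stood at 15.8 times its level in q2 and 61.1 times in q1. The difference in calls between the 10 cytokines and these 27 was not tested.

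None of 12 genes for proteins that bind AU-rich elements was called by the authors' Cuffdiff q, none had an unadjusted p below 0.05, and their median log2 fold change was -0.14. That count too is near the share of 0.612% over all tested genes and is not a result about this list. Zfp36, which codes for tristetraprolin, the protein that speeds the decay of Tnf mRNA, was at 4325 FPKM in q2 and 4229 FPKM in q1 in the authors' deposited table and exceeded 99.9% of tested genes in both. Zfp36l1, a relative of Zfp36, was at 191 FPKM in q2 and 219 FPKM in q1 there.

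**Figure D5:**
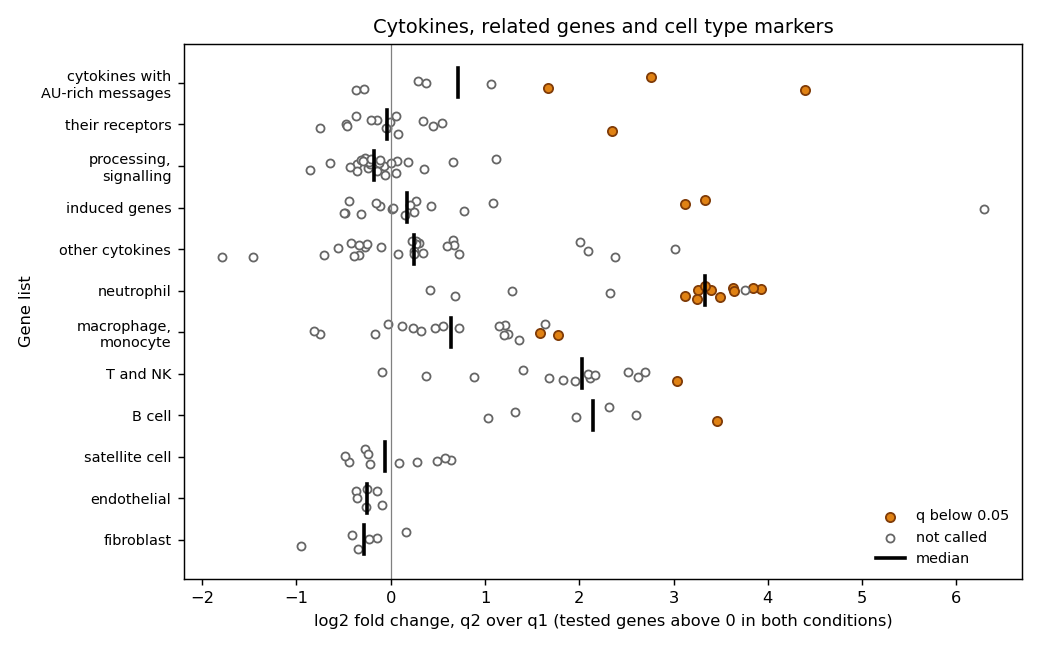
Log2 fold change of q2 over q1 for each tested gene above 0 in both conditions, by list; filled points had q below 0.05, open points did not, and black bars are medians. The cytokine median of 0.72 lies above those of their receptors (-0.04) and of other cytokines (0.25) and below those of neutrophil (3.34), T and natural killer (2.02) and B cell (2.14) markers; the macrophage and monocyte median is 0.64.

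Whether called or other cytokines had more AU-rich pentamers depended on how they were counted. In the longest 3' UTR, the 5 called genes had a median of 6 pentamers, with a range of 0 to 7, and the 5 others a median of 7, with a range of 3 to 10. Both genes with the nonamer, Tnf and Lif, were among those not called. Il1rn was called without a pentamer. In the shortest annotated 3' UTR the order turned round, with medians of 6 in the called genes and 3 in the others. Per 1000 bases of the longest 3' UTR it also turned round, with medians of 8.71 in the called genes and 2.72 in the others. The called genes had shorter 3' UTRs at the median, of 637 bases against 1668, though Il1rn among them had 1864. For the others, the median pentamers and median length of the longest 3' UTR depend on the transcript taken for Il6. Its longest 3' UTR holds 10 pentamers in 1668 bases, and another annotated one holds 6 in 427. With 10 genes picked by name, these counts are a description.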

How the data were processed

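RNA from 3 AUF1-null and 3 wild-type samples was sequenced. The submitters' processing notes list TopHat2 (2.0.9), Cufflinks (2.2.1) and the mm9 build. The gene positions are nevertheless those of GRCm38, since 99.5% of 21358 genes matched to RefSeq GRCm38 by symbol and chromosome overlapped their annotated position, as did all 10 cytokines. Per the file headers, the authors deposited 1 table in the layout of Cuffdiff, with FPKM values pooled per condition, their log2 fold change, a test statistic (a score, used only to find infinite values), a p-value and a q-value. The headings name no unit for the group values, which stand on the FPKM scale by Cuffdiff's layout. The conditions are named q1 and q2 and matched no label, so no genotype was assigned. Annotation, library normalization, strand and depth were stated in no source used here.

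From the table, 14858 tested genes (status OK) were read with the authors' deposited q-value, which matched the p-value after Benjamini-Hochberg adjustment within 0.0001 for all of them. No test of its own was run, as no values per sample were analysed here. The labels do not say whether samples were separate mice, so any spread behind the p-values may be technical. Fold changes were recomputed from the deposited FPKM, and none was given against 0. The cytokines and gene lists were chosen with earlier results of these data known. All 10 cytokines, their receptors and every called gene of a list are named, or the highest 2 where none was called. Other genes named were chosen after their values were seen, and Gm14047, Gm14023 and Hnrnpd for the checks they serve. Pentamers and nonamers were counted in 3' UTRs of protein-coding GENCODE vM21 transcripts with complete ends, and the counting and the p-value adjustment were tested on simulated data. Windows of at most 30 bases were taken where pentamers were densest. Python 3.11.15 and pandas 2.3.3 were used.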

Additional observations from a re-analysis of the deposited data

How the results depend on the processing

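No paired analysis was possible because the table holds 1 value per condition, so no sample could be left out or blocked. At a q threshold of 0.01 the counts of called cytokines, receptors, induced genes, all tested genes and neutrophil, macrophage, T and natural killer, and B cell markers were all 0, because the smallest q is 0.0108. With genes above 0 on both sides only, 2 cytokines were called, and with at least 1 FPKM 4 were. At a q of 0.1, 1 other cytokine, Osm, was called. An unadjusted p below 0.05 was reached by 890 of all tested genes, 6 cytokines, 4 induced genes, 1 signalling gene, 2 other cytokines, 9 macrophage, 6 T and natural killer, 5 B cell and 1 fibroblast marker. With a pseudocount of 1, median log2 fold changes were 3.22 for neutrophil, 0.51 for macrophage, 0.81 for T and natural killer and 1.47 for B cell markers; with 0.1 they were 1.74 for T and natural killer and 2.02 for B cell markers. The 8 cytokines with a fold change kept their direction under both pseudocounts and under centring. In the shortest annotated 3' UTR, Il6 and Csf1 had 0 pentamers. The ratio of median pentamers, called over not called cytokines, was below 1 in the longest 3' UTR. It was 2 in the shortest and 3.20 per 1000 bases. The called genes have shorter 3' UTRs at the median, though that of Il1rn, at 1864 bases, is longer than those of Il1a, Il6 and Tnf. Without counts, the depth behind low values such as those of Ifng, Il17a and Lif is unknown.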

Other observations

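Of 47 other cytokine genes in the table, 20 were not tested, and 6 of them, Il3, Il9, Il24, Il1f5, Il1f6 and Il1f8, were listed at 0 in both conditions. Il2, Il19, Il22 and Il25 were listed at 0 in q1 and at 0.10, 0.069, 0.17 and 0.31 FPKM in q2 in the authors' deposited table, without a test. The 3 other cytokines highest in q2 were Kitl, Il33 and Cntf. Kitl, the ligand of the Kit receptor, was at 147 FPKM in q2 and 186 FPKM in q1, Cntf, a factor of Schwann cells, was at 24.1 FPKM in q2 and 31.5 FPKM in q1, and Il33, an alarm cytokine, was at 24.7 FPKM in q2 and 20.5 FPKM in q1 in the authors' deposited table (Cuffdiff q = 0.999 each). Cntf is listed at the same position as an entry named U05342,Zfp91, so its level may not be that of Cntf alone. Others were low, such as Il11, at 1.25 FPKM in q2 and 1.57 FPKM in q1, and Tgfb1, at 1.09 FPKM in q2 and 0.72 FPKM in q1 there.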
